A study of Mus musculus with 4 samples.

Results

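The genes described here are the mouse zinc finger protein genes named Zfp1 to Zfp599, followed in RNA recovered with SAFB from nuclei of AML12, a mouse hepatocyte line that does not come from a tumour. SAFB (scaffold attachment factor B) sits in the nuclear matrix and binds DNA as well as RNA. Members were selected on their symbol, which is Zfp with a number up to that of Zfp599 and at most 1 letter, and on their level, which reached 1 TPM (a transcript's share of its library, corrected for length) in at least 2 of the 4 libraries. Of 215 such symbols, 187 met the level threshold, among 16647 genes that met it in all. That many of these genes were higher in the SAFB libraries was already known when they were picked, so counts over the members are given as a description.

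The samples are 2 SAFB RIP libraries, from nuclear RNA precipitated with an antibody against SAFB, and 2 IgG RIP libraries, in which control IgG took the place of that antibody; per the labels, nuclear lysate was divided between them. All 4 come from AML12 cells, which derive from a mouse transgenic for human TGF-α, and the labels give no other genetic change and no treatment. The cells were grown with 10% serum and 0.1 µM dexamethasone and crosslinked with ultraviolet light. RIP-seq (RNA immunoprecipitation and sequencing) asks which RNAs come down with a protein, and the series set out to identify RNAs associated with SAFB. The labels do not say that the 2 libraries of a group came from separate cultures, so a p-value speaks of the scatter among these 4 libraries alone. The input was not analysed here, so an RNA's level in the nuclei and its recovery with the antibody cannot be told apart. As these are bulk libraries, more cells with an RNA and more of it per cell cannot be told apart either.

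Most Zfp genes encode proteins with a row of C2H2 zinc fingers, each a short fold in which a pair of cysteines and a pair of histidines hold a zinc ion. Fingers in a row are joined by a short conserved linker and read DNA, or in some proteins RNA. Many of these proteins also carry a KRAB box, which recruits TRIM28 and through it the methyltransferase SETDB1 to silence transposable elements and imprinted genes. The genes multiplied by local duplication and often lie in clusters. A few Zfp symbols mark unrelated proteins, with fingers of other kinds.

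The linker recurs along the coding sequence of these genes, and its letters are shown here because the codons for its glutamate and lysine can spell GAGAAA, a purine-rich word, and SAFB has been described as an RNA-binding protein that favours purine-rich sequence. The 6 stretches run from the first linker through the finger that follows it, 5′ to 3′, as read from the GENCODE coding transcripts, with the linker codons in capitals. The first 4 belong to the members with the largest fold changes, and the last 2 to members with negative fold changes, picked after their values had been seen.
Zfp382: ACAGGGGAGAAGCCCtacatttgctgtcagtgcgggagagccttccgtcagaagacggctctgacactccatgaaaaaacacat
Zfp597: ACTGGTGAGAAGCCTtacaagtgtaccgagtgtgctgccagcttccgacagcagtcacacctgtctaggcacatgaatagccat
Zfp3: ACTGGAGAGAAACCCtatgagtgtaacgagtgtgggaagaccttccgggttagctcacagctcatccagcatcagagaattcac
Zfp146: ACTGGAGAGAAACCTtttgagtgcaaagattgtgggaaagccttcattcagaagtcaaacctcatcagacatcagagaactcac
Zfp46: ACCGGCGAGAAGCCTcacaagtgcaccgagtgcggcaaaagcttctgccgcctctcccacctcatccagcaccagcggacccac
Zfp142: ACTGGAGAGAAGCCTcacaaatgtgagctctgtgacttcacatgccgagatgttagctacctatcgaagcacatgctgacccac
The genes lie, on GRCm38 (mm10), at chromosome 7, 30121942 to 30134950, plus strand for Zfp382, chromosome 16, 3858321 to 3884561, minus strand for Zfp597, chromosome 11, 70764209 to 70772928, plus strand for Zfp3, chromosome 7, 30161269 to 30169750, minus strand for Zfp146, chromosome 4, 136284683 to 136293942, plus strand for Zfp46, and chromosome 1, 74565127 to 74588246, minus strand for Zfp142. Every stretch is exonic and coding. GAGAAA is in the printed linker of Zfp3 and Zfp146 and not in that of the other 4.

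The members took a larger share of the SAFB libraries than of the IgG libraries. Together they held 0.929% and 0.884% of all TPM in the SAFB libraries, against 0.370% and 0.366% in the IgG libraries, means of 0.907% ± 0.0316 and 0.368% ± 0.00260 (SD, n = 2 each). The groups did not overlap, and their gap was larger than the spread within either group. No test was run on this sum, because 2 libraries against 2 cannot give an exact two-sided permutation p below 0.333. The median member stood at 21.3 and 24.4 TPM in the SAFB libraries and at 10.4 and 10.6 TPM in the IgG libraries. Over all genes tested the median was 21.7 and 22.1 TPM in the SAFB libraries and 15.2 and 16.1 TPM in the IgG libraries. The SAFB libraries were also the closer to each other: the median absolute log2 gap between them over the members was 0.161, against 0.404 between the IgG libraries.

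Of the 187 members, 107 (57.2%) were higher in the SAFB RIP at an adjusted p below 0.05 (limma on log2(TPM + 1), Benjamini-Hochberg over all 16647 genes) and 0 were lower, against 2 at an unadjusted p below 0.05, Zfp511 and Zfp574. Among all genes tested 29.8% were higher and 8.30% lower. Of the 80 members that did not pass, 58 had a positive and 22 a negative fold change. The median log2 fold change of the members was 1.27, with quartiles of 0.62 and 1.89 and a range of -0.91 to 3.61, against a median of 0.46 over all genes. Fold changes of over 1 on the log2 scale were seen in 120 members, of over 2 in 42 and of over 3 in 8. Those over 2 made up 22.5% of the members, against 9.12% of all genes tested. Negative fold changes made up 11.8%, against 32.4%. In 152 members (81.3%) each SAFB library exceeded each IgG library, against 52.3% of all genes tested, and in 13 (6.95%) both lay below, against 21.4%.

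Since the median of all genes was itself 0.46 above 0, the counts were also taken after each library had been centred on its median. Centring left 71 members higher, all 71 of them among the 107, and put 5 past the threshold as lower, namely Zfp395, Zfp444, Zfp511, Zfp574 and Zfp598. The background was then 16.4% higher and 17.6% lower, and the members' median log2 fold change was 0.81. The count fell without either SAFB library, in fits whose spread comes from the IgG libraries alone. Without SAFB replicate 1 or without SAFB replicate 2, the same genes being tested, 5 of 187 members passed each time, with a background of 4.61% and 4.70%. They were Zfp52, Zfp300, Zfp389, Zfp397 and Zfp451 in both fits, so that every other member called higher in what follows lost its call there. Of the genes in those fits, 715 had no spread left between the remaining libraries of a group. Zfp300 and Zfp389, listed at 0 in both IgG libraries, are among these, and Zfp52 comes close to them, with 0 and 0.0355 TPM in the IgG libraries. These 3 met the level threshold through the SAFB libraries alone and had to differ, which leaves Zfp397 and Zfp451 as the 2 of the 5 that reached 1 TPM in the IgG libraries. When the threshold of 1 TPM was applied again to the 3 libraries left, a choice made after these counts had been seen, 54 of 172 members were higher without SAFB replicate 1 (background 13.4%) and 61 of 172 without SAFB replicate 2 (background 15.0%). Without IgG replicate 1 the same genes gave 130 members higher and 2 lower, Zfp395 and Zfp574 (backgrounds 41.2% and 13.6%), and without IgG replicate 2 they gave 139 higher and 10 lower (backgrounds 45.8% and 15.4%). The members' median log2 fold change stayed between 1.12 and 1.42 in all of these fits. Fits without an IgG library take their spread from the SAFB libraries alone, which lay closer to each other over the members. The scatter between the IgG libraries is left out of the calls there.

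**Figure D1:**
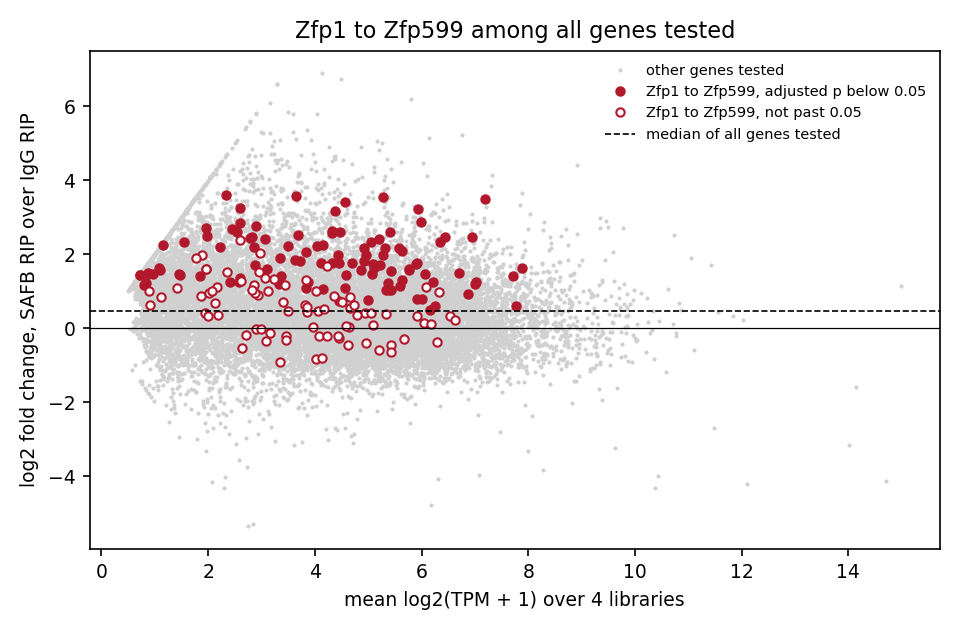
Log2 fold change of SAFB RIP over IgG RIP (vertical axis) against mean log2(TPM + 1) over the 4 libraries (horizontal axis), with 1 point per gene tested. The 107 members past an adjusted p of 0.05 are filled red, the other 80 are open red and all other genes are grey; the dashed line is the median of all genes, 0.46, and no filled member lies below 0.

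The members differed in how they met the threshold. In all, 153 reached 1 TPM in all 4 libraries, and 83 of these were higher, against 27.0% of all genes that reached 1 TPM in all 4 libraries. Their median log2 fold change was 1.16, against 0.30. A further 19 reached it in 3 libraries, of which 15 fell short in IgG replicate 1 and 4 in IgG replicate 2. The last 15 met it through the SAFB libraries alone and so had to differ, and 13 of the 107 are among them. No member met it through the IgG libraries alone. Of the 15, Zfp14 had the highest SAFB values, 12.2 and 5.74 TPM in the SAFB libraries against 0.657 and 0.673 TPM in the IgG libraries. Zfp442 had 6.09 and 5.12 TPM in the SAFB libraries and 0.710 and 0 TPM in the IgG libraries. Zfp300 and Zfp389, a transcribed pseudogene, were listed at 0 in both IgG libraries.

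Around the threshold, Zfp300 had 1.10 and 2.47 TPM in the SAFB libraries and was listed at 0 in both IgG libraries. Zfp334 had 1.58 and 1.11 TPM in the SAFB libraries against 0.749 and 0.280 TPM in the IgG libraries, and Zfp97 had 2.17 and 1.31 TPM against 0 and 0.353 TPM. These 3 lay just inside. Just outside lay Zfp473, with 0.986 and 2.06 TPM in the SAFB libraries and 0 and 0.478 TPM in the IgG libraries, and Zfp352, with 0.770 and 0.865 TPM in the SAFB libraries and 0 in both IgG libraries. Zfp469 had 0.677 and 0.601 TPM in the SAFB libraries and 1.09 and 0 TPM in the IgG libraries. Of the 28 symbols outside, 2 reached 1 TPM in 1 library, 26 in 0 libraries, and 17 were listed at 0 throughout.

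The largest increases among the members past the threshold, with a SAFB mean of at least 5 TPM and groups that did not overlap, were those of Zfp382, Zfp597, Zfp3, Zfp146, Zfp189, Zfp551, Zfp407, Zfp59, Zfp397 and Zfp456. Zfp382, a KRAB gene with 9 fingers, had 17.6 and 15.6 TPM in the SAFB libraries and 1.06 and 0 TPM in the IgG libraries. Both SAFB libraries lay far above both IgG libraries, of which 1 was listed at 0. The log2 fold change was 3.61 ± 0.47 (SE), with an adjusted p of 0.00960 in limma. Zfp597 had 43.5 and 41.3 TPM in the SAFB libraries against 1.67 and 4.01 TPM in the IgG libraries, a log2 fold change of 3.57 ± 0.40 (limma, adjusted p = 0.00760). The groups lay apart, though the IgG libraries differed more from each other than the SAFB libraries did. Exons of Naa60 and Zfp174 overlap Zfp597 on the other strand, and the use of strand in counting is not given in the sources used here, so its value is uncertain.

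Zfp3 had 140.5 and 123.7 TPM in the SAFB libraries and 10.98 and 9.92 TPM in the IgG libraries. The libraries of each group lay close together, and the mean was 12.6-fold higher in the SAFB RIP. Its log2 fold change was 3.54 ± 0.16 (limma, adjusted p = 0.00373). Zfp146 encodes OZF, a protein made of little but its row of fingers. It was the most abundant member in the SAFB RIP, with 552 and 435 TPM in the SAFB libraries against 36.0 and 51.2 TPM in the IgG libraries. The mean was 11.3-fold higher in the SAFB RIP, and the log2 fold change was 3.48 ± 0.22 (limma, adjusted p = 0.00414).

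Zfp189, with 16 fingers, had 87.2 and 66.7 TPM in the SAFB libraries and 3.89 and 9.84 TPM in the IgG libraries (log2 fold change 3.41 ± 0.44; limma, adjusted p = 0.00960). Zfp407, a long protein with 21 fingers, had 198.3 and 176 TPM in the SAFB libraries and 16.3 and 22.2 TPM in the IgG libraries (log2 fold change 3.23 ± 0.19; limma, adjusted p = 0.00395). In both genes the lower SAFB value was several times the higher IgG value. A transcript on the other strand overlaps exons of Zfp407.

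Zfp551 had 21.6 and 14.2 TPM in the SAFB libraries and 1.08 and 0.820 TPM in the IgG libraries. Zfp59 had 65.1 and 56.7 TPM in the SAFB libraries against 4.66 and 7.48 TPM in the IgG libraries, but 52.4% of its 50-base words also occur in another gene, so reads may have been split between them. Both are KRAB genes. Their log2 fold changes were 3.25 ± 0.37 and 3.16 ± 0.29 (limma, adjusted p = 0.00779 and 0.00577). Zfp397 had 182.1 and 161.1 TPM in the SAFB libraries and 23.2 and 22.2 TPM in the IgG libraries, a log2 fold change of 2.86 ± 0.13 (limma, adjusted p = 0.00373). Its IgG libraries were almost equal, and it kept its call in each fit without 1 library. Zfp456 had 17.8 and 13.0 TPM in the SAFB libraries and 0.801 and 1.88 TPM in the IgG libraries, and it overlaps Gm28041 on the same strand and Gm17039 on the other. The other 9 of these 10 lost their calls without either SAFB library when the tested genes were held fixed. With the threshold applied again, Zfp551 and Zfp456 lost theirs without SAFB replicate 1 and the remaining 7 did not.

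**Figure D2:**
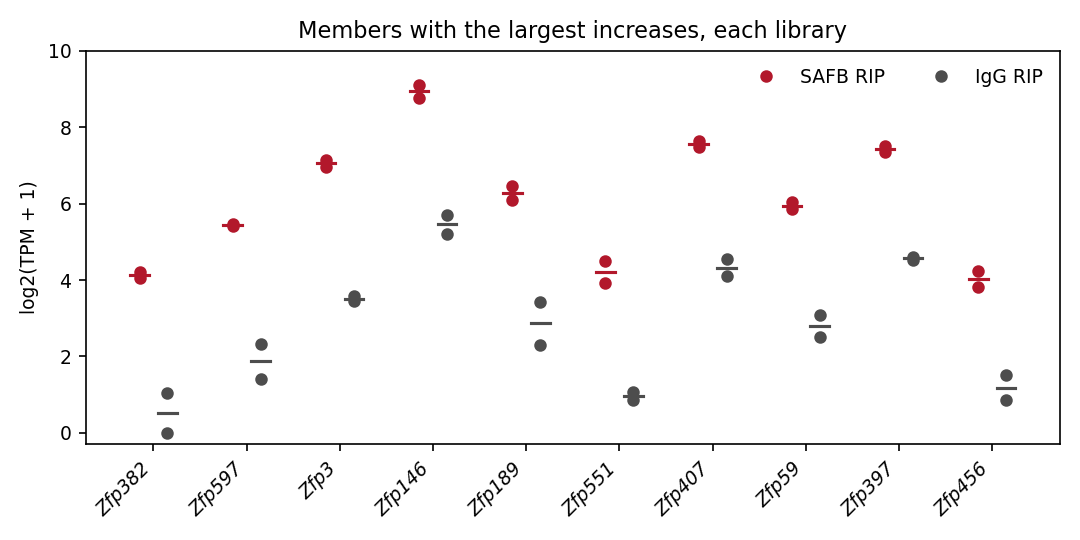
Log2(TPM + 1) of each library (vertical axis) for the 10 members with the largest increases (horizontal axis), SAFB RIP in red to the left of IgG RIP in grey; points are libraries and bars are group means of 2. In each gene both red points lie above both grey points, from Zfp382, with 1 IgG library at 0, to Zfp146, whose SAFB libraries reached 552 and 435 TPM.

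The most abundant members, by mean TPM over the 4 libraries, were Zfp512, Zfp146, Zfp445, Zfp207, Zfp568, Zfp91, Zfp369 and Zfp106. All 8 were higher in the SAFB RIP. Zfp512 led, with 419.2 and 409.6 TPM in the SAFB libraries and 135.5 and 133.6 TPM in the IgG libraries. The libraries of each group nearly coincided, and the log2 fold change of 1.62 ± 0.09 had the smallest SE of the named members (limma, adjusted p = 0.00378). Zfp369, a relative of the neurotrophin receptor interacting factor Zfp110, had 202 and 186 TPM in the SAFB libraries and 74.1 and 95.4 TPM in the IgG libraries (log2 fold change 1.20 ± 0.16; limma, adjusted p = 0.00989). The share of members called higher was largest among abundant members, as it was over all genes tested. With a mean of 50 TPM or more 31 of 40 were higher (background 38.0%), with 20 to 50 TPM 31 of 51 (29.2%), with 5 to 20 TPM 27 of 63 (22.2%) and under 5 TPM 18 of 33 (29.7%). Of those 18, 13 are members that met the threshold through the SAFB libraries alone and had to differ, and the other 18 members of the lowest range gave 5. The members' median log2 fold change did not rise with level. From the highest range to the lowest it was 1.36, 1.23, 1.25 and 1.43, against 0.26, 0.30, 0.53 and 0.81 over all genes tested.

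Of 3 members that act at imprinted loci, 2 were higher and 0 lower (backgrounds 29.8% and 8.30%). Zfp568, a KRAB repressor of the placental promoter of Igf2, had 293.6 and 281.4 TPM in the SAFB libraries and 56.8 and 46.4 TPM in the IgG libraries. The groups lay far apart, with a log2 fold change of 2.46 ± 0.14 (limma, adjusted p = 0.00378). Zfp445, which protects imprints after fertilisation, had 360 and 326.9 TPM in the SAFB libraries and 115 and 142 TPM in the IgG libraries, a log2 fold change of 1.42 ± 0.14 (limma, adjusted p = 0.00623). Zfp57, its partner in that task, had 115 and 109.9 TPM in the SAFB libraries and 37.8 and 83.2 TPM in the IgG libraries. Each SAFB library exceeded each IgG library, but the IgG libraries stood far apart, and the log2 fold change of 0.99 ± 0.39 did not pass (limma, adjusted p = 0.110). The log2 fold change was 1.55 without IgG replicate 2 and 0.43 without IgG replicate 1.

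Of 7 members that bind RNA or act on ribosomes, 2 were higher and 0 lower (backgrounds 29.8% and 8.30%), a share near the background. The list's median log2 fold change was -0.03 as deposited and -0.49 after median centring. It was 0.53 once a trend with GC content and transcript length had been taken out of each library, a step added after the data had been seen. That step leaves the shift of all genes in place, with a median of 0.46 over all genes tested. A positive value after it can thus lie below the typical gene. Zfp106, which binds RNA repeats and is needed in muscle and motor neurons, had 163.1 and 160.2 TPM in the SAFB libraries and 87.4 and 81.2 TPM in the IgG libraries (log2 fold change 0.93 ± 0.10; limma, adjusted p = 0.00743). Zfp346, which binds double-stranded RNA, had 70.9 and 70.8 TPM in the SAFB libraries and 34.2 and 29.2 TPM in the IgG libraries (log2 fold change 1.14 ± 0.15; limma, adjusted p = 0.00944). In both genes the groups were well separated, and a gene on the other strand overlaps exons of each.

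The other 5 did not pass. Zfp326, which links transcription to splicing, had 38.3 and 30.8 TPM in the SAFB libraries, inside the range of its IgG libraries at 24.98 and 41.4 TPM. Zfp36 encodes tristetraprolin, which has fingers of the CCCH kind and speeds the decay of messages with AU-rich elements. It had 5.83 and 7.14 TPM in the SAFB libraries and 8.54 and 8.51 TPM in the IgG libraries, so that both SAFB values lay below both IgG values. Zfp598, the ubiquitin ligase that marks collided ribosomes, had 34.8 and 37.2 TPM in the SAFB libraries and 58.3 and 42.0 TPM in the IgG libraries. Its log2 fold change of -0.45 ± 0.21 did not pass as deposited (limma, adjusted p = 0.153) and was -0.91 after median centring, where it did (limma, adjusted p = 0.0363). Without IgG replicate 2 it was -0.68. With the GC and length trend removed it was 0.43 and did not pass. Zfp385a, an RNA-binding protein, had 4.17 and 4.18 TPM in the SAFB libraries against 5.32 and 7.99 TPM in the IgG libraries. Zfp593, whose relatives help build the large ribosomal subunit, had 7.66 and 6.08 TPM in the SAFB libraries and 8.32 and 5.85 TPM in the IgG libraries, a full overlap. With that trend removed the other 3 members with a negative value, Zfp36, Zfp385a and Zfp593, also had positive log2 fold changes, of 0.12, 0.53 and 0.67, none of which passed. Zfp36 and Zfp598 stayed below the median of all genes in that fit, 0.46.

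Of 6 well-described transcription factors, 2 were higher and 0 lower, a share near the backgrounds of 29.8% and 8.30%. Zfp281, a regulator of pluripotent cells, had 60.5 and 58.5 TPM in the SAFB libraries and 17.6 and 19.6 TPM in the IgG libraries, with a log2 fold change of 1.63 ± 0.16 (limma, adjusted p = 0.00606). Zfp143, which binds many promoters, had 28.1 and 26.3 TPM in the SAFB libraries and 16.5 and 15.5 TPM in the IgG libraries. Its groups did not overlap, but its log2 fold change of 0.73 ± 0.20 (limma, adjusted p = 0.0462) lost its call after median centring, at 0.27, and without SAFB replicate 1, at 0.68, or SAFB replicate 2, at 0.78. Zfp148 had 24.1 and 30.1 TPM in the SAFB libraries and 11.97 and 16.7 TPM in the IgG libraries, without overlap, and did not pass (log2 fold change 0.88 ± 0.27; limma, adjusted p = 0.0622). Its log2 fold change was 0.66 without IgG replicate 1 and 1.11 without IgG replicate 2. Zfp410, which activates Chd4, was nearly level, with 72.4 and 76.8 TPM in the SAFB libraries and 71.9 and 66.2 TPM in the IgG libraries.

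Zfp384, a nuclear matrix protein that binds DNA, had 65.6 and 70.7 TPM in the SAFB libraries and 120 and 64.0 TPM in the IgG libraries. The groups overlapped, with the IgG libraries far apart, and without IgG replicate 2 the log2 fold change was -0.81. Zfp335, part of a histone methyltransferase complex, had 21.6 and 18.4 TPM in the SAFB libraries and 32.5 and 23.9 TPM in the IgG libraries, below without overlap, with a log2 fold change of -0.47 ± 0.24 that did not pass (limma, adjusted p = 0.192). Without IgG replicate 2 it was -0.68. With the GC and length trend removed both turned positive without passing, at 0.12 for Zfp384 and 0.33 for Zfp335. Both stayed below the median of all genes in that fit, 0.46.

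The members with roles in ubiquitin, SUMO and mitosis were higher, 3 of 3 (background 29.8%, or 38.0% of genes with a mean of 50 TPM or more, as these have). Zfp451, a SUMO ligase, had 213 and 192 TPM in the SAFB libraries and 36.3 and 35.2 TPM in the IgG libraries, a 5.66-fold difference of the means (log2 fold change 2.47 ± 0.12; limma, adjusted p = 0.00373). Zfp91, a ubiquitin ligase of the NF-κB pathway, had 206 and 193.2 TPM in the SAFB libraries and 80.2 and 85.5 TPM in the IgG libraries (log2 fold change 1.26 ± 0.10; limma, adjusted p = 0.00518). Exons of Cntf overlap it on the same strand. Zfp207 encodes BuGZ, which helps load a checkpoint protein onto kinetochores. It had 271.7 and 268.2 TPM in the SAFB libraries and 187.5 and 166.5 TPM in the IgG libraries. Its log2 fold change of 0.61 ± 0.10 passed as deposited (limma, adjusted p = 0.0163) and was 0.15 after median centring, where it did not, nor did it without SAFB replicate 1, at 0.60, or SAFB replicate 2, at 0.62.

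Of the 5 genes listed for chromatin complexes, 4 were members, and 3 of these were higher and 0 lower (backgrounds 29.8% and 8.30%). Zfp292, a long transcription factor, had 66.02 and 61.01 TPM in the SAFB libraries and 12.2 and 14.4 TPM in the IgG libraries (log2 fold change 2.18 ± 0.18; limma, adjusted p = 0.00518). Zfp217, whose human counterpart works with histone demethylase and CtBP complexes, had 92.3 and 94.6 TPM in the SAFB libraries and 28.1 and 32.9 TPM in the IgG libraries (log2 fold change 1.59 ± 0.14; limma, adjusted p = 0.00577). Zfp592, whose human counterpart joins ZMYND8, had 60.5 and 64.1 TPM in the SAFB libraries and 22.2 and 30.3 TPM in the IgG libraries (log2 fold change 1.23 ± 0.20; limma, adjusted p = 0.0146). In each of the 3 the groups did not overlap, the SAFB values being the higher. The fourth, Zfp462, is described with the genes near 0, and Zfp532 did not reach the threshold.

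Genes known as lineage factors of other cell types were mostly not detected. Of 8 listed, 7 stayed below 1 TPM in every library, among them Zfp42 (Rex1, a marker of pluripotent cells), Zfp423 and Zfp521 (factors of fat and blood lineages), Zfp541 (testis) and Zfp366 (dendritic cells), which were listed at 0 in all 4 libraries. Zfp516, an activator of the brown fat programme, was the exception, with 93.1 and 92.8 TPM in the SAFB libraries and 67.8 and 55.0 TPM in the IgG libraries. Its log2 fold change of 0.60 ± 0.15 passed as deposited (limma, adjusted p = 0.0360) and was 0.14 after median centring, where it did not, nor did it without SAFB replicate 1, at 0.59, or SAFB replicate 2, at 0.60.

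**Figure D3:**
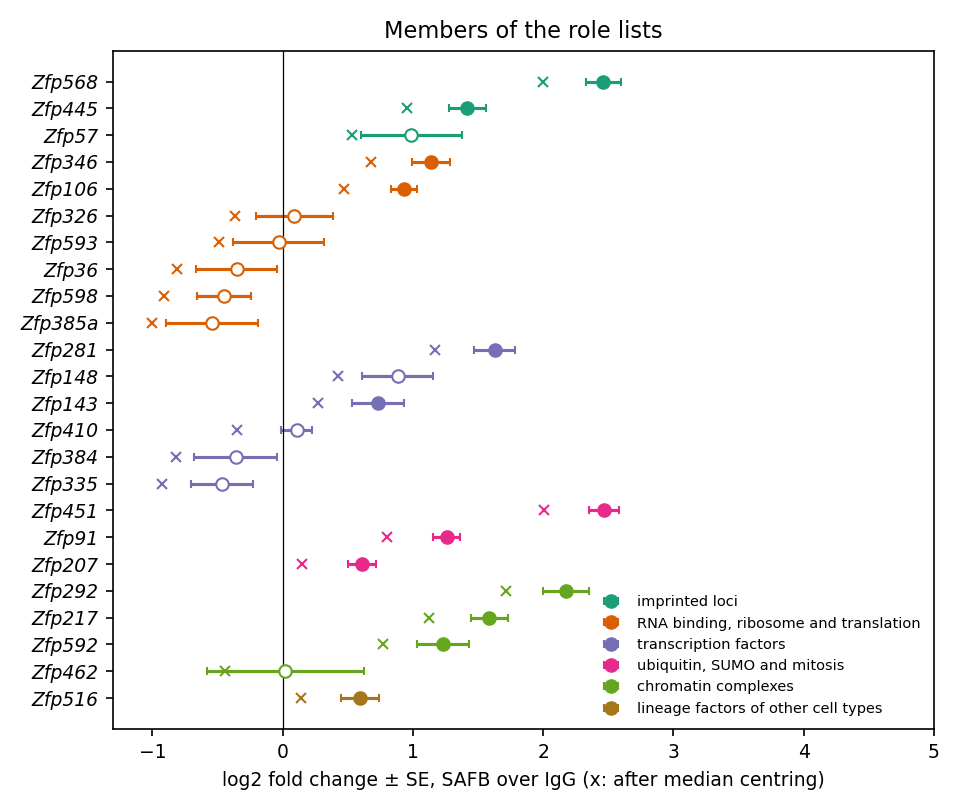
Log2 fold change of SAFB RIP over IgG RIP with its SE (horizontal axis) for the 24 members of the role lists (vertical axis), coloured by list, with filled circles for an adjusted p below 0.05 and crosses for the value after median centring. The RNA-binding and ribosome list spans both sides of 0, from Zfp346 at 1.14 to Zfp385a at -0.54 as deposited, while the 3 members of the ubiquitin, SUMO and mitosis list all lie above 0. The 4 negative members of the RNA-binding and ribosome list are positive once the GC and length trend is removed (not drawn). All genes tested have a median of 0.46 in that fit.

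Members nearest 0 with a mean of at least 10 TPM were Zfp462, Zfp523 and Zfp12. Zfp462, a partner of heterochromatin proteins, had 13.6 and 15.7 TPM in the SAFB libraries, between its IgG values of 26.3 and 7.70 TPM. Its direction rests on which IgG library is kept. The log2 fold change was 0.02 ± 0.60 with both, 0.85 without IgG replicate 1 and -0.81 without IgG replicate 2, and it was -0.44 after median centring. Zfp523 had 19.6 and 30.0 TPM in the SAFB libraries and 25.7 and 22.0 TPM in the IgG libraries, and Zfp12 had 17.8 and 30.9 TPM in the SAFB libraries and 20.9 and 24.2 TPM in the IgG libraries. In both the IgG values lay inside the range of the SAFB values. After median centring their log2 fold changes were -0.43 and -0.40.

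No member passed with a negative fold change, and 13 (6.95%) lay below their IgG values without overlap, against 21.4% of all genes tested. The most negative was Zfp428, at 4.98 and 8.12 TPM in the SAFB libraries and 19.2 and 8.53 TPM in the IgG libraries (log2 fold change -0.91 ± 0.50; limma, adjusted p = 0.215). Its IgG libraries stood far apart, and its log2 fold change was -1.45 without IgG replicate 2 and -0.37 without IgG replicate 1. Zfp574, with 18 fingers, had 10.3 and 12.4 TPM in the SAFB libraries and 21.5 and 19.9 TPM in the IgG libraries. It came closest to passing among these, with a log2 fold change of -0.82 ± 0.24 (limma, adjusted p = 0.0587), and passed after median centring at -1.28. The log2 fold change was -0.77 without IgG replicate 1 and -0.87 without IgG replicate 2. Zfp511 had 30.1 and 28.1 TPM in the SAFB libraries and 49.5 and 39.3 TPM in the IgG libraries (log2 fold change -0.59 ± 0.18; limma, adjusted p = 0.0659), and exons of Tubgcp2 overlap it on the other strand. Zfp444 had 41.2 and 27.0 TPM in the SAFB libraries and 63.2 and 44.3 TPM in the IgG libraries, and Zfp395 had 44.1 and 46.5 TPM in the SAFB libraries and 49.9 and 60.6 TPM in the IgG libraries. With the GC and length trend removed none of the 5 passed, and their log2 fold changes were -0.097 for Zfp428, -0.067 for Zfp574, -0.31 for Zfp511, -0.55 for Zfp444 and 0.13 for Zfp395. All lay below the median of all genes in that fit, 0.46. These 5 were singled out after their values had been seen.

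The number of fingers was counted in the translated principal transcripts of the 185 protein-coding members, as a cysteine pair and a histidine pair at the usual spacing. The counts ran up to 33, and 144 members had at least 5 fingers. Members with 0 fingers of this kind (7) had a median log2 fold change of 0.42, those with 1 to 4 (34) of 0.96, those with 5 to 9 (47) of 1.48, those with 10 to 14 (64) of 1.45 and those with 15 or more (33) of 1.27. Among protein-coding genes that are no members the medians were 0.30 with 0 fingers, 0.69 with 1 to 4, 1.15 with 5 to 9, 1.70 with 10 to 14 and 1.47 with 15 or more. In both sets the values were higher with 5 or more fingers than with fewer, and did not go on rising beyond 14. After median centring the medians with 0 fingers were -0.041 in members and -0.16 in the other genes. The order with finger number is a description over genes, which share libraries and base composition.

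The members with the most fingers were not among the large increases. Zfp462 has 33, Zfp142 has 30 and Zfp236 has 29. Zfp142 had 18.8 and 19.3 TPM in the SAFB libraries and 26.1 and 20.7 TPM in the IgG libraries (log2 fold change -0.27 ± 0.22; limma, adjusted p = 0.375). Zfp236 had 102.2 and 109 TPM in the SAFB libraries and 104.9 and 78.0 TPM in the IgG libraries, which overlap. Its log2 fold change was 0.43 without IgG replicate 1. With all libraries it was 0.22 ± 0.18, and -0.24 after median centring. At the other end 7 members tie at 0 fingers of this kind, and Zfp185, Zfp330 and Zfp36 come first among them in alphabetical order. Zfp451, also at 0, had the largest increase of the 7, with a log2 fold change of 2.47. Zfp330, a nucleolar protein, had 115.9 and 111.2 TPM in the SAFB libraries and 41.4 and 53.0 TPM in the IgG libraries (log2 fold change 1.26 ± 0.16; limma, adjusted p = 0.00929). Zfp185, a LIM domain protein, had 18.1 and 18.9 TPM in the SAFB libraries and 14.7 and 11.7 TPM in the IgG libraries and did not pass (log2 fold change 0.46 ± 0.25; limma, adjusted p = 0.203). Its log2 fold change was 0.61 without IgG replicate 1.

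**Figure D4:**
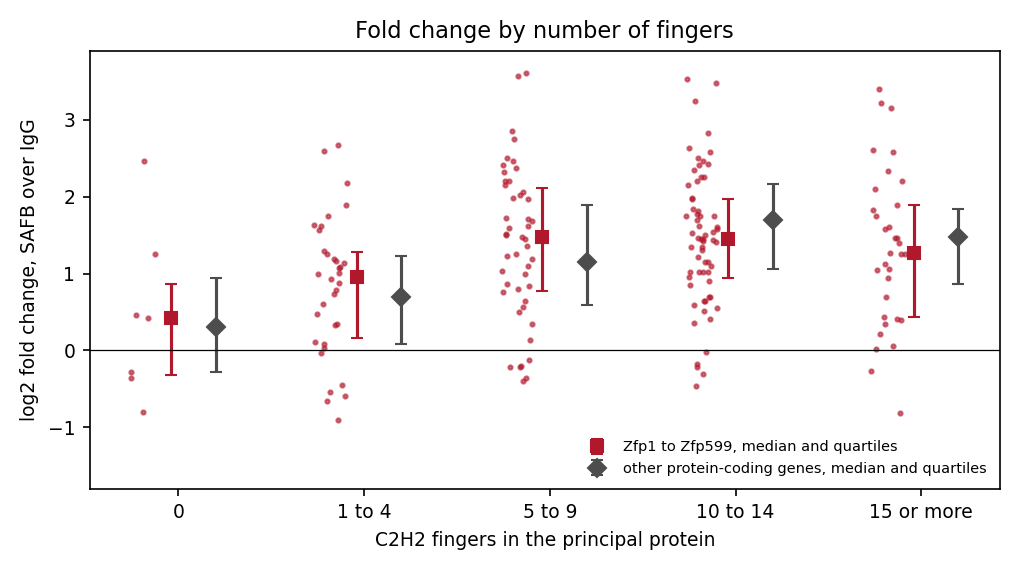
Log2 fold change of SAFB RIP over IgG RIP (vertical axis) by number of C2H2 fingers in the principal protein (horizontal axis); red points are members, red squares and grey diamonds are medians of members and of other protein-coding genes, and bars run between the quartiles. The medians are higher with 5 or more fingers, 1.27 to 1.48 in members and 1.15 to 1.70 in the other genes, than with 0 fingers, 0.42 and 0.30.

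A KRAB box motif was found in 68 members, of which 42 were higher (median log2 fold change 1.46), and not in 117, of which 63 were higher (median 1.09), against a background of 29.8% over all genes tested. Within the members of 5 or more fingers the medians lay nearer, 1.47 with the motif (66 members) and 1.35 without (78). Members that met the threshold through the SAFB libraries alone, and so had to differ, are kept in these counts and medians. The motif was a strict pattern, so members without it may still carry a KRAB box. Of 28 listed partners through which KRAB proteins silence genes, 27 were tested, 13 were higher and 1 was lower, against backgrounds of 29.8% and 8.30%, and their median log2 fold change was 0.46, as for all genes. After median centring 7 were higher and 4 lower, and without either SAFB library 1 was higher and 0 lower. Trim28, the corepressor that KRAB boxes bind, was the one lower as deposited, with 116 and 134.2 TPM in the SAFB libraries and 333 and 301.3 TPM in the IgG libraries (log2 fold change -1.34 ± 0.12; limma, adjusted p = 0.00577). Setdb1, the methyltransferase it brings in, had 67.3 and 67.4 TPM in the SAFB libraries and 55.6 and 42.2 TPM in the IgG libraries and did not pass (adjusted p = 0.101). Atrx, a chromatin remodeller at heterochromatin, had the largest increase of the list, with 514 and 506.6 TPM in the SAFB libraries and 119.6 and 114 TPM in the IgG libraries (log2 fold change 2.12 ± 0.09; limma, adjusted p = 0.00373).

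Base composition moved with the fold change. The 47 members with the highest GC content, above 51.7% of the principal transcript, had a median log2 fold change of 0.34 (-0.12 after median centring), and 16 of them were higher. The 47 with the lowest, up to 40.6%, had a median of 1.47 and 30 higher, the 47 up to 46.2% had 1.44 and 30, and the 46 up to 51.7% had 1.56 and 31. Other protein-coding genes in the same GC ranges, from low to high, had medians of 0.98, 0.83, 0.50 and -0.15. Of these genes 47.0%, 46.1%, 34.6% and 11.6% were higher, in the same order. In each range the members' median was the higher one. When a trend with GC content and transcript length was taken out of each library, a step chosen once these values were known, 100 members were higher and 0 lower, against 27.4% and 4.81% of the genes tested. The members' medians in the 4 ranges, from low to high GC, were then 1.32, 1.13, 1.36 and 1.04. Those of the other protein-coding genes were 0.73, 0.48, 0.34 and 0.34. Zfp523, at 61.2% GC and a log2 fold change of 0.03 as deposited, stood at 1.04 after that step. The median of all genes tested was then 0.46.

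**Figure D5:**
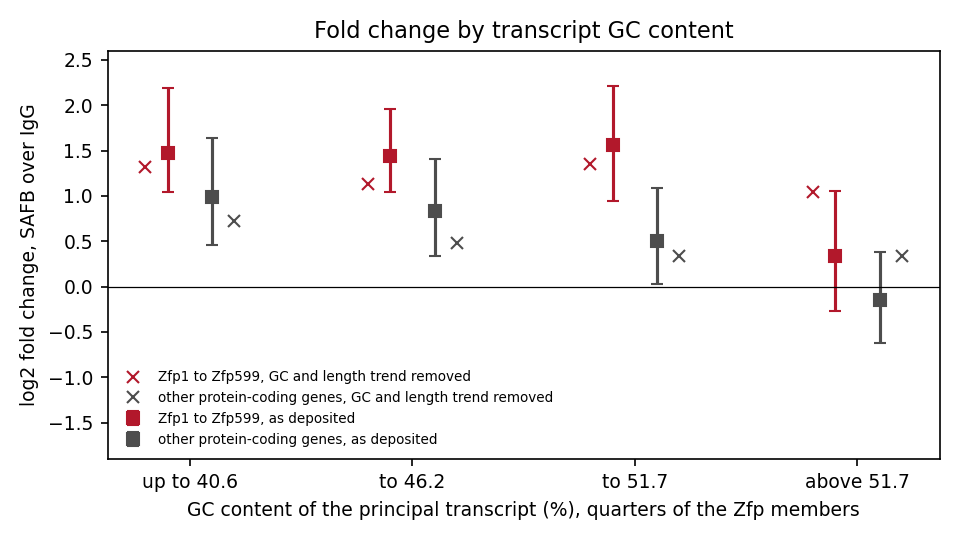
Median log2 fold change of SAFB RIP over IgG RIP (vertical axis) in 4 ranges of transcript GC content (horizontal axis), for members in red and other protein-coding genes in grey; squares are values as deposited with bars between the quartiles, and crosses are medians after a trend with GC and length was removed. As deposited both sets are lowest above 51.7% GC, at 0.34 and -0.15, and after removal the members' medians lie between 1.04 and 1.36. Those of the other genes then lie between 0.34 and 0.73.

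The linker was found 740 times in 132 members, with 152 spellings, of which 396 (53.5%) held GAGAAA. The commonest, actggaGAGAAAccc, with the word in capitals, occurred 59 times and is the first linker of Zfp3. On the transcript strand, in the last 900 coding bases, GAGAAA occurred in 78.7% of 174 members long enough to be searched and in 41.6% of 8462 other protein-coding genes. The word GAAGAA, also purine-rich, which can overlap GAGAAA and itself, occurred there in 47.1% of the members and 58.8% of the other genes. GAGAAA was not particular to the members. Its median per kilobase of transcript was 1.36 in them and 1.98 in Zfp600 and above. In other protein-coding genes with a finger and the KRAB motif it was 3.75. The 47 members with the fewest GAGAAA per kilobase of transcript had a median log2 fold change of 0.42 (-0.041 after median centring) and the next groups, of 47, 46 and 47, had medians of 1.36, 1.57 and 1.47. Other protein-coding genes in the same ranges, from few to many, had medians of 0.071, 0.51, 0.96 and 1.36. Fewest GAGAAA also went with high GC content in the members, at a median of 54.3%. With the GC and length trend removed the members' medians, from few to many, were 0.69, 1.38, 1.31 and 1.32. Those of the other protein-coding genes were then 0.27, 0.47, 0.81 and 1.14. Zfp597, with 0 of its 1 linker holding the word but 6 copies of it in the transcript, was among the largest increases. Zfp46, with 1 of 7 linkers, 3 copies in the transcript and a log2 fold change of -0.31, was not. The part of GC content, of this word and of finger number in the fold changes was not tested.

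Some of the members sat in clusters. With gaps of at most 500 kb and at least 4 members, 9 clusters held 65 members, of which 40 were higher. Chromosome 7 alone held 49 members, 31 of them higher. Over all members, in a cluster or not, 57.2% were higher, and over all genes tested 29.8%. A cluster of 13 members at chromosome 7, 29768552 to 30169750, holds Zfp382, Zfp568 and Zfp146, and 9 of the 13 were higher. Among the 9 is Zfp14, which met the threshold through the SAFB libraries alone and had to differ. Fold changes in this cluster ran from 0.43 in Zfp420 to 3.61 in Zfp382 on the log2 scale. Zfp420, with 19 fingers, had 15.6 and 15.8 TPM in the SAFB libraries and 13.4 and 9.69 TPM in the IgG libraries, a short way from Zfp383 at 31.0 and 30.5 TPM in the SAFB libraries and 6.71 and 10.5 TPM in the IgG libraries. Neighbours in a cluster could thus differ widely. A cluster of 10 on the same chromosome, 24081924 to 24515682, ran from -0.91 in Zfp428 to 2.63 in Zfp112, and 7 of its members were higher. A cluster of 13 at chromosome 13, 67194506 to 67827002, had 7 higher, between 0.94 in Zfp458 and 2.83 in Zfp456.

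Shared sequence limits single values. Exons of 55 members overlap another gene, 12 on the same strand and 46 on the other. The 132 without such an overlap had 77 higher (background 29.8%) and a median log2 fold change of 1.43. In 26 members over 10% of the 50-base words also occur in another gene, up to 94.4% in Zfp82 and 83.1% in Zfp97. Genes named Zfp600 and above, which the members resemble most, had 83 of 145 higher and 1 lower (backgrounds 29.8% and 8.30%), with a median log2 fold change of 1.41. The difference between them and the members was not tested.

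The libraries differed in more than these genes. Noncoding RNAs at a ribosomal DNA fragment took 1.002% and 1.52% of TPM in the SAFB libraries and 18.7% and 14.8% in the IgG libraries, and protein-coding genes took 83.7% in both SAFB libraries and 68.0% and 67.8% in the IgG libraries. With TPM rescaled over protein-coding genes alone 92 of 185 members were higher and 5 lower, against 21.5% and 19.2% of the genes tested. TPM keeps no read depth, so no counting interval is given. All 12 hepatocyte markers listed reached 1 TPM in all 4 libraries, as did 3 of 4 biliary markers, whose sum was 870 and 900.5 TPM in the SAFB libraries and 1265 and 910 TPM in the IgG libraries. Of 5 immune, 3 endothelial and 3 stellate markers, 0 reached 1 TPM in all 4 libraries, and each list summed to under 1 TPM in every library.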

How the data were processed

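RIP-seq libraries of nuclear RNA from AML12 cells, 2 with an antibody against SAFB and 2 with control IgG, were compared; groups were taken from the labels. The authors deposited 1 table of TPM values, scaled within each library; per the submitters' processing notes HISAT2, HTSeq, DESeq2, StringTie and mm10 were used, with no versions or roles given, and neither the tool behind the TPM values nor the use of strand is stated. TPM keeps no read depth, so the depth per sample is unknown and counting error cannot be given.

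The 16647 genes that reached 1 TPM in 2 or more libraries were fitted with limma 3.58.1 in R 4.3.3 on log2(TPM + 1), with a trend, and Benjamini-Hochberg adjustment ran over all of them, with a threshold of 0.05. The pseudocount of 1 TPM understates fold changes of low genes. The fit had 2 residual and 2.50 prior degrees of freedom. Errors of TPM means are SD and those of fold changes SE. The fit was tried on simulated data with independent normal noise, where only the recovery of set fold changes was required. A shift of all genes and a library left out were not simulated.

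Members and gene lists were chosen with earlier results of these data known. Named members are the 10 largest increases past the threshold with a SAFB mean of at least 5 TPM and no overlap, up to 5 decreases past it (0 were found), the 8 with the highest mean TPM, the 3 nearest 0 with a mean of at least 10 TPM, the 3 with most and the 3 with fewest fingers (ties in alphabetical order), the 3 on either side of the level threshold, and the role lists. Of the members, 187 were found in GENCODE M21 (GRCm38, the assembly also called mm10), which gave positions, strands and transcripts. Fingers, KRAB motifs and linkers were counted in its translated coding transcripts, in place of the RefSeq proteins first planned. The patterns were Cys, 2 residues, Cys, 12 residues, His, 3 to 5 residues and His for a finger, which misses other spacings (Zfp143 has 1 finger by it and 7 with 2 to 4 residues between the cysteines), and the exact linker letters. A KRAB motif was Asp or Glu, Val, 3 residues, Phe or Leu, Ser or Thr, 2 residues, Glu, Trp, 2 residues and Leu. Boxes spelled otherwise are missed.

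The same-numbered libraries did not deviate together (correlation of -0.02). With 2 libraries per group both replicate numbers give the same correlation by construction. Alternatives covered the pseudocount, the filter, the scaling, the trend, a replicate block and each library left out. Fits without 1 library kept the genes of the full fit; a repeat with the level threshold applied again and the removal of a GC and length trend were added after the data had been seen.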

Additional observations from a re-analysis of the deposited data

How the results depend on the processing

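The count of members higher in the SAFB RIP, 107, ranged from 5 to 139 without 1 library, that of members lower from 0 to 10 and the members' median log2 fold change, 1.27, from 1.12 to 1.42. Over all genes these fits gave 767 to 7627 higher, against 4964 with all libraries, and 7 to 2566 lower, against 1382. For the partner genes they gave 1 to 17 higher and 0 to 3 lower. With the level threshold applied again to the 3 libraries left, 54 members were higher without SAFB replicate 1 and 61 without SAFB replicate 2, up to 141 were higher and 11 lower without IgG replicate 2, 2034 to 7781 genes were higher and 571 to 2631 lower, with 2282 and 798 without SAFB replicate 2 and 2325 lower without IgG replicate 1, and up to 4 partners were lower. When a SAFB library was left out with the genes held fixed the prior degrees of freedom were 1.04, and 24.0 and 22.6 with the level threshold applied again; 51 of the 107 members were higher in all 4 fits of 3 libraries in the second case, and 5 of them in the first.

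Median centring gave 71 members higher and 5 lower with a median of 0.81, 2736 genes higher and 2935 lower, and 7 partners higher and 4 lower. Quantile normalization gave 5 members lower with a median of 0.65, 2758 genes higher and 2986 lower, and 4 partners lower. Protein-coding genes alone gave 5 members lower with a median of 1.07, 2600 genes higher and 2322 lower, and 4 partners lower. A pseudocount of 0.1 TPM gave a median of 1.52. A mean of 5 TPM or more, and a fit without the trend, each gave 1 member lower, Zfp574. With the GC and length trend removed 799 genes and 2 partners were lower, and the median of all genes was still 0.46. The cause of these shifts was not tested, except that centring takes the 0.46 median of all genes away by construction.

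The medians by finger number, for 0, 1 to 4, 5 to 9, 10 to 14 and 15 or more fingers, were -0.041, 0.50, 1.02, 0.99 and 0.81 after median centring. With the GC and length trend removed they were 0.17 for 0 fingers, 1.30 for 5 to 9, 1.29 for 10 to 14 and 1.14 for 15 or more. With 3 residues between the histidines the class of 1 to 4 had 1.07, and with 2 to 4 residues between the cysteines the class of 5 to 9 had 1.36.

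The replicate block, a pairing of same-numbered libraries whose deviations did not correlate, gave 99 members higher and 0 lower. Over 45 named members and 17 alternatives, 592 of 756 log2 fold changes kept direction and side of the threshold, 86 no longer passed, 28 newly passed and 50, in 14 members, changed sign. Of these 50, 2 passed, both for Zfp462 without IgG replicate 2, and none of the 14 passed with all libraries. Median centring gave -0.44 for Zfp462, -0.43 for Zfp523, -0.40 for Zfp12, -0.24 for Zfp236, -0.37 for Zfp326 and -0.35 for Zfp410. Quantile normalization gave -0.47, -0.36, -0.35, -0.10, -0.26 and -0.19 for the same 6, -0.022 for Zfp185 and -0.54 for Zfp334. Protein-coding genes alone gave -0.26, -0.26, -0.23, -0.077, -0.20 and -0.19 for the 6. Removal of the GC and length trend gave -0.31 for Zfp462, -0.15 for Zfp326, 0.12 for Zfp36, 0.53 for Zfp385a, 0.67 for Zfp593, 0.43 for Zfp598, 0.12 for Zfp384 and 0.33 for Zfp335. Without 1 library, with either set of genes, Zfp462 ranged from -0.81 to 0.85, Zfp523 from -0.27 to 0.32, Zfp12 from -0.32 to 0.44, Zfp326 from -0.26 to 0.44, Zfp593 from -0.25 to 0.19 and Zfp384 from -0.81 to 0.088; values inside these ranges on the other side of 0 were -0.077 for Zfp462, -0.078 for Zfp523, -0.043 for Zfp12, -0.062 for Zfp326 and 0.12 for Zfp593. Depth is unknown, which leaves the precision of low values open.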
